A study of Homo sapiens with 4 samples.

Results

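The steroid conjugation and reduction enzymes measured here are 9 genes: the glucuronosyltransferases UGT2B15, UGT2B17, UGT2B7 and UGT2B28, the reductase SRD5A1, the hydroxysteroid dehydrogenases HSD17B4 and HSD17B10, the aldo-keto reductase AKR1C3 and the cytochrome P450 CYP3A4. Their probe sets were found by the platform annotation, which lists 15 for 8 of the 9 genes and for 7 of them at least 1 above the filter on dim signals. In all, 11963 genes had a probe set of their own among the 22215 probe sets of the table. UGT2B7 was matched to none of them and is not analysed here. All cells were LNCaP, a line of human prostate cancer that responds to androgen, kept in medium with 10% fetal bovine serum and transfected transiently with Lipofectamine. The MED1 cells received a vector expressing MED1, the Mediator subunit that contacts nuclear receptors, and the control cells received the same treatment with an empty vector. Cells were harvested at 24 hours, with 2 arrays per group. A transient transfection mixes cells with much, little and no vector, and the values are averages over them. Both groups went through lipofection and had the steroids of serum, so no untransfected or steroid-free level is given by this design.

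Androgen strength in a prostate cell is set partly by local enzymes. SRD5A1 and AKR1C3 work towards potent androgens: AKR1C3 reduces androstenedione to testosterone, and SRD5A1 reduces the A ring of the steroid on the way to dihydrotestosterone. UGT2B15, UGT2B17 and UGT2B28 work the other way, attaching glucuronic acid to androgens and their reduced metabolites so that they can leave the cell. UGT2B15 and UGT2B17 are known in LNCaP cells as genes lowered by androgen. CYP3A4, the main drug-oxidising P450 of liver, hydroxylates testosterone.

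None of the 7 enzymes with a tested probe set passed the test for a difference between MED1 and empty vector cells. The lowest p was that of 1 CYP3A4 probe set, with signals of 91.7 and 129 in MED1 cells against 8.13 and 27.8 in empty vector cells. It entered the test only through its signal in MED1 cells, and on the other 3 CYP3A4 probe sets the groups overlapped. The UGT2B genes, SRD5A1, HSD17B4 and HSD17B10 differed by less than could be told from the spread between arrays. The single AKR1C3 probe set was too dim to be tested, and read about 15 on both MED1 arrays against about 30 on both empty vector arrays. In these bulk samples, fewer cells with a transcript and less of it per cell cannot be told apart.

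Values are MAS5 signals, a linear brightness per probe set scaled to the same trimmed mean on every array. Differences are log2 fold changes of signal + 16, MED1 over empty vector, tested with limma on 13329 probe sets above a filter level of 31.0, at a Benjamini-Hochberg adjusted p of 0.05. Of the 15 member probe sets 10 lay above the filter, and 0 of these passed. Over all tested probe sets 39 passed, which is 0.293%, so a count of 0 in 10 is near that background. At an unadjusted p of 0.05, 1 of the 10 was called, the CYP3A4 one, against 9.2% of all tested probe sets. The median log2 fold change of the 10 was 0.17 and 7 were positive, beside a median of -0.02 over all tested probe sets, of which 46.5% were positive. These 10 stand for only 7 genes, since SRD5A1 has 3 of them and UGT2B15 has 2. Counted once per gene, by the probe set of highest mean signal, 4 of the 7 were positive. The median by gene was 0.08, beside -0.02 over all genes. Both MED1 arrays lay above both empty vector arrays for 3 of the 10, where 17.2% of tested probe sets did so, and below for 0 of them, where 22.6% did. By gene it was 2 of the 7 above and 0 below, where 17.7% and 23.5% of all genes did so. These counts depend on the filter. The CYP3A4 probe set among those above entered the test only through its signal in MED1 cells. AKR1C3, with both MED1 arrays below, was under the filter and is not counted.

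No member probe set is annotated to several genes. However, 6 of the 15 carry the suffix _x_at, by which the manufacturer marks probes that may also bind other transcripts, where 10.9% of all probe sets do. These are 2 of 3 for UGT2B15, the single one for UGT2B28 and 3 of 4 for CYP3A4. Both the UGT2B and the CYP3A genes are families of closely similar sequences, so these signals may hold RNA of relatives. Signals of different probe sets are not on a common scale and are not read as levels of one transcript against another. Where a gene has several, the one of highest mean signal is given first and stands for the gene in counts of genes.

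**Figure D1:**
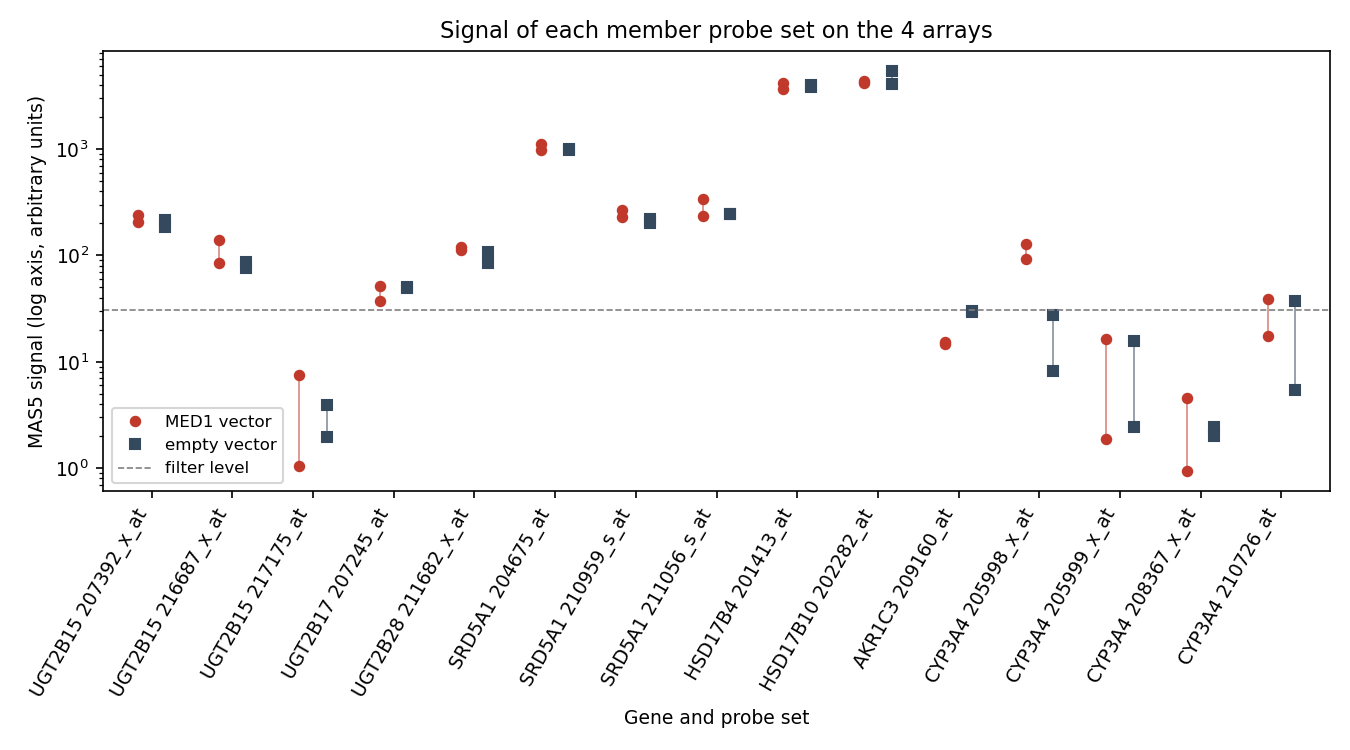
MAS5 signal (log axis, arbitrary units) of the 15 member probe sets on the 2 MED1 arrays (red circles) and the 2 empty vector arrays (blue squares); a thin line joins the arrays of a group and the dashed line marks the filter level of 31.0. CYP3A4 205998_x_at stands above that line on both MED1 arrays and under it on both empty vector arrays, while AKR1C3 lies wholly under it.

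The transfection check came from MED1 itself. Its probe set 203496_s_at read 559 and 807 in MED1 cells against 292 and 315 in empty vector cells, while 203497_at read 1172 and 1074 against 1097 and 1011, so 1 of its 2 probe sets differed (limma, adjusted p = 0.032, and 0.83 for the other). That call was lost with the filter left out (limma, adjusted p = 0.381), without the variance trend (0.358) and without either empty vector array (0.0607 and 0.0869). The label of a prostate cell was matched by 8 of 8 measured luminal markers above the filter, with KLK2 at 7584 and 7934 in MED1 cells and 8117 and 8663 in empty vector cells. Of 9 hepatocyte markers 2 were above it. TTR, a plasma carrier of thyroid hormone, read 151 and 164 in MED1 cells against 113 and 129 in empty vector cells (limma, adjusted p = 0.584), and AHSG read 49.3 and 33.4 against 34.2 and 26.4 (0.779). Among those under it, the fibrinogen gene FGB read 19.8 and 10.4 in MED1 cells against 1.39 and 6.41 in empty vector cells, and the albumin gene ALB 8.77 and 0.597 against 11.3 and 18.6. The groups did not overlap for TTR and FGB, higher in MED1 cells, and for ALB, CYP2E1 and SERPINA1, lower. Of these genes only TTR was above the filter. Separation of this kind was common, since 3479 of all 22215 probe sets separated upward in MED1 cells and 4833 downward. No shift of hepatocyte genes is read from it. The labels name LNCaP cells only, and whether hepatocyte genes change together with CYP3A4 was not tested. The sum of the 9 signals was 296 and 253 in MED1 cells and 241 and 287 in empty vector cells. Basal, fibroblast, and leukocyte and endothelial lists had 1 of 3, 2 of 6 and 1 of 5 measured genes above the filter. For the actin control, signal at the 3' end over that at the 5' end was 9.40 and 9.32 in MED1 cells and 8.14 and 9.45 in empty vector cells. For the GAPDH control the same ratio was 1.16 and 1.24 in MED1 cells and 1.16 and 1.27 in empty vector cells.

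UGT2B15 conjugates dihydrotestosterone and its reduced diol metabolites. Its probe set of highest mean signal, 207392_x_at, read 239 and 205 in MED1 cells against 186 and 214 in empty vector cells. These groups overlap, and the log2 fold change was 0.14 ± 0.15 (SE), with a 95% interval of -0.21 to 0.48 (limma, adjusted p = 0.83) and a range of 0.03 to 0.24 with an array left out. A second probe set, 216687_x_at, read 139 and 85.7 in MED1 cells against 87.2 and 76.0 in empty vector cells. Here MED1 replicate 1 alone stands above the other 3 arrays, and the log2 fold change was 0.37 ± 0.23 (95% interval -0.16 to 0.89; limma, adjusted p = 0.656). Without that array it was 0.06. The third, 217175_at, was far under the filter, at 7.58 and 1.04 in MED1 cells and 1.96 and 3.93 in empty vector cells, and was not tested.

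UGT2B17, the close relative of UGT2B15 with a strong activity on testosterone, read 37.0 and 52.1 in MED1 cells against 49.4 and 50.9 in empty vector cells. MED1 replicate 1 was the low array and the other 3 lay close together. The log2 fold change was -0.14 ± 0.25, with a 95% interval of -0.69 to 0.41 (limma, adjusted p = 0.905), and it was 0.04 without MED1 replicate 1. UGT2B28, a further androgen-conjugating member, read 119 and 114 in MED1 cells against 84.4 and 108 in empty vector cells. The groups did not overlap, with empty vector replicate 2 just under the MED1 arrays, and the log2 fold change was 0.25 ± 0.19 (95% interval -0.18 to 0.67; limma, adjusted p = 0.729). It was 0.10 without empty vector replicate 1 and 0.40 without replicate 2. Of the 4 tested UGT2B probe sets, 3 were thus positive, all of the _x_at kind, and the one without that suffix was negative. UGT2B4, which acts on bile acids in liver, lay under the filter at 16.9 and 9.97 in MED1 cells against 16.2 and 24.5 in empty vector cells. Another 7 probe sets list several UGT1A genes at once, and 5 of these were tested, with log2 fold changes over the 7 of -0.37 to 0.31 and a lowest adjusted p of 0.713 (limma).

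SRD5A1 is the isoform of steroid reductase that predominates in many prostate cancer cells. On 204675_at it read 1123 and 977 in MED1 cells against 971 and 1010 in empty vector cells. The groups overlap, and the log2 fold change was 0.08 ± 0.10 with a 95% interval of -0.16 to 0.32, or 0.898 to 1.24-fold (limma, adjusted p = 0.859). The probe set 210959_s_at read 265 and 229 in MED1 cells against 221 and 200 in empty vector cells, a separation of the groups with a log2 fold change of 0.21 ± 0.15 (95% interval -0.12 to 0.54; limma, adjusted p = 0.686), which ran from 0.11 to 0.31 with an array left out. On 211056_s_at the signals were 235 and 340 in MED1 cells and 243 and 246 in empty vector cells. MED1 replicate 2 alone was high there, and the log2 fold change of 0.20 ± 0.17 (limma, adjusted p = 0.766) became -0.06 without it. All 3 SRD5A1 values were positive and none passed. SRD5A2, the isoform of normal prostate, was under the filter, at 8.57 and 15.3 in MED1 cells and 1.94 and 15.0 in empty vector cells.

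HSD17B4 is a peroxisomal enzyme that oxidises estradiol to estrone and also serves the breakdown of very long-chain fatty acids. It read 4146 and 3638 in MED1 cells against 4002 and 3811 in empty vector cells, with both empty vector arrays inside the range of the MED1 arrays. The log2 fold change was -0.01 ± 0.10 (95% interval -0.24 to 0.22, or 0.85 to 1.16-fold; limma, adjusted p = 0.99), and centring each array on its median turned the sign, to 0.04. HSD17B10, a mitochondrial dehydrogenase of isoleucine breakdown that is also a subunit of mitochondrial RNase P, read 4214 and 4384 in MED1 cells against 4109 and 5443 in empty vector cells. Empty vector replicate 2 was the high array, and the log2 fold change of -0.14 ± 0.13 (95% interval -0.43 to 0.16; limma, adjusted p = 0.792) was 0.06 without it.

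**Figure D2:**
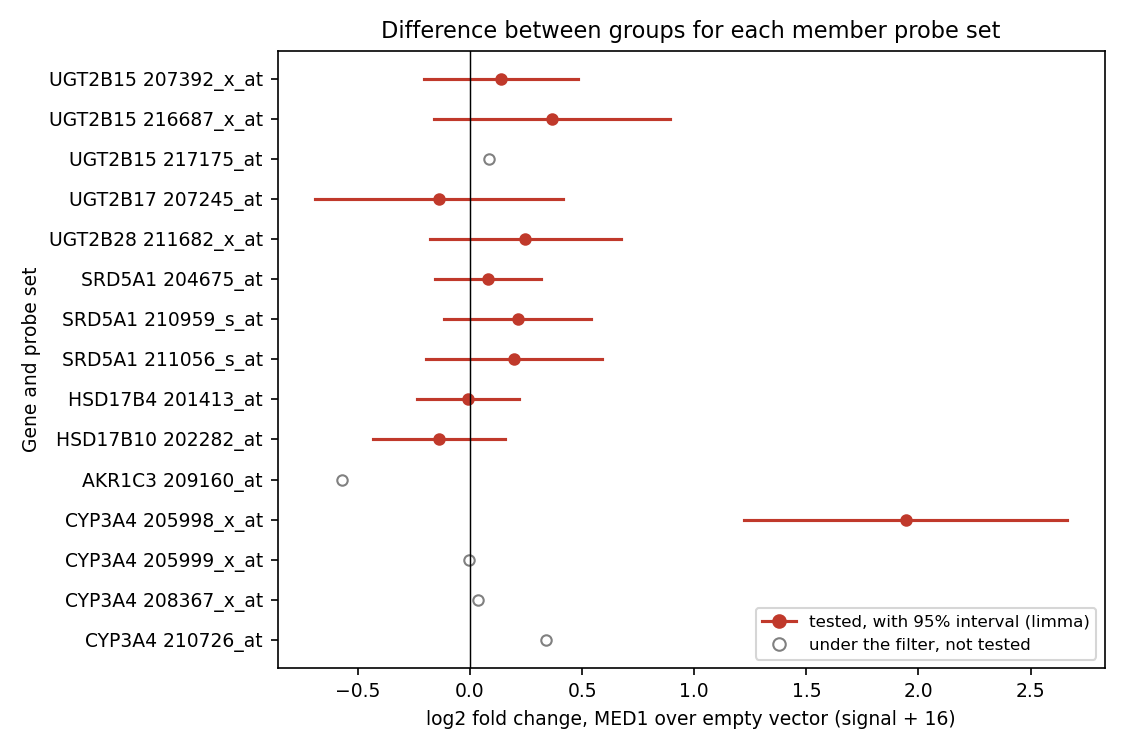
Log2 fold change of signal + 16, MED1 over empty vector, for each member probe set; red points with bars are tested values with limma's 95% interval, and open grey points lay under the filter and were not tested. All intervals but that of CYP3A4 205998_x_at include 0; this one runs from 1.22 to 2.66 before any adjustment for the number of probe sets, and its place depends on the pseudocount of 16.

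AKR1C3 had 1 probe set, 209160_at. It read 14.6 and 15.3 in MED1 cells against 30.1 and 29.7 in empty vector cells. The replicates lay close together and the groups apart, but all 4 signals were under the filter level, where MAS5 values have no known background here. Among the 5 member probe sets under the filter it was the single one whose arrays did not overlap, and among all 8886 such probe sets 20.5% had both MED1 arrays below. The log2 fold change was -0.57, and it was -0.96 with a pseudocount of 1 and -0.25 with 64. Tested with the filter left out, it was -0.57 ± 0.24 and did not pass (limma, adjusted p = 0.671).

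The relatives AKR1C1 and AKR1C2, which inactivate progesterone and dihydrotestosterone, lay above the filter on 4 probe sets, all of the _x_at kind. For AKR1C1, 204151_x_at read 97.5 and 130 in MED1 cells against 108 and 117 in empty vector cells, and for AKR1C2, 209699_x_at read 74.5 and 101 against 89.0 and 87.7. Both pairs overlap. A second AKR1C2 probe set, 211653_x_at, read 49.4 and 56.5 in MED1 cells against 68.0 and 86.0 in empty vector cells. Its log2 fold change was -0.43 ± 0.22 (limma, adjusted p = 0.597). The second for AKR1C1, 216594_x_at, read 65.0 and 67.4 against 81.3 and 67.5, with -0.13 ± 0.21 (limma, adjusted p = 0.89). On these 2 both MED1 arrays lay below, as on 22.6% of all tested probe sets. None of the 4 passed. AKR1C4, the liver member, read 5.49 and 1.32 against 1.31 and 6.65.

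CYP3A4 was measured by 4 probe sets, and they did not give the same picture. On 205998_x_at it read 91.7 and 129 in MED1 cells against 8.13 and 27.8 in empty vector cells. Both MED1 arrays lay well above both empty vector arrays, and the empty vector signals were under the filter level, so the probe set was tested because of its signal in MED1 cells. The means were 110 ± 26.6 and 18.0 ± 13.9 (SD, n = 2 each), and the log2 fold change was 1.94 ± 0.32 (limma, adjusted p = 0.0521). Its size has no firm value, since the empty vector signals have no known background, and it was 2.76 with a pseudocount of 1 and 1.09 with 64. With all 4 arrays in other settings, the adjusted p went from 0.00151 with the replicate block to 0.537 with the filter left out (limma). It was also under the threshold with a pseudocount of 64, median centring and quantile normalization. It was above it with a pseudocount of 1 and without the variance trend. With an array left out, 1 group has a single array and no spread of its own, and the log2 fold change ran from 1.51 to 2.37. All these settings reuse the same 4 arrays and are not separate support.

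The other 3 CYP3A4 probe sets lay under the filter and their groups overlapped. On 205999_x_at the signals were 16.4 and 1.87 in MED1 cells and 15.6 and 2.45 in empty vector cells. On 208367_x_at they were 0.931 and 4.59 against 2.45 and 2.01, and on 210726_at 17.3 and 38.9 against 5.41 and 37.5. On 205999_x_at and 210726_at the arrays of a group thus differed more from each other than the groups did. With no filter, their adjusted p was 0.901 to 0.999 (limma).

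The neighbouring CYP3A genes, which share much of their sequence with CYP3A4, gave 9 further probe sets, all under the filter. Groups overlapped on 8 of the 9. The exception was 205765_at of CYP3A5, the isoform found outside the liver in many people. It read 16.8 and 16.1 in MED1 cells against 5.63 and 10.6 in empty vector cells. Over all 22215 probe sets, tested or not, 3479 had both MED1 arrays above, so 1 in 9 is near that background. The other CYP3A5 probe sets read 8.36 and 9.39 against 10.6 and 4.99, and 14.7 and 2.17 against 1.87 and 3.40. Whether RNA other than that of CYP3A4 contributes to 205998_x_at was not tested.

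**Figure D3:**
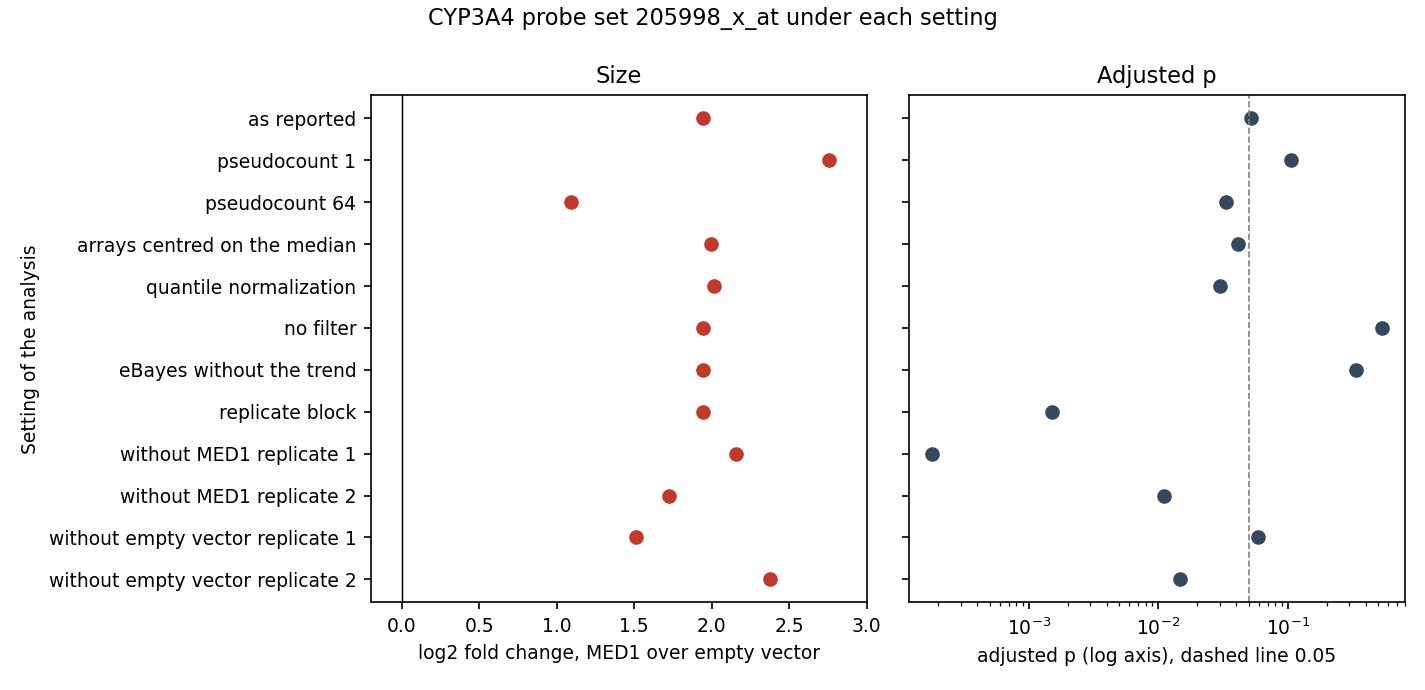
The CYP3A4 probe set 205998_x_at under the reported setting and 11 alternatives, 1 per line; the left panel gives the log2 fold change, MED1 over empty vector, and the right panel the Benjamini-Hochberg adjusted p on a log axis with a dashed line at 0.05. The difference is positive throughout, between 1.09 and 2.76, while the adjusted p lies on either side of the line. With an array left out, that p takes the lone array of a group to vary like the other group.

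**Figure D4:**
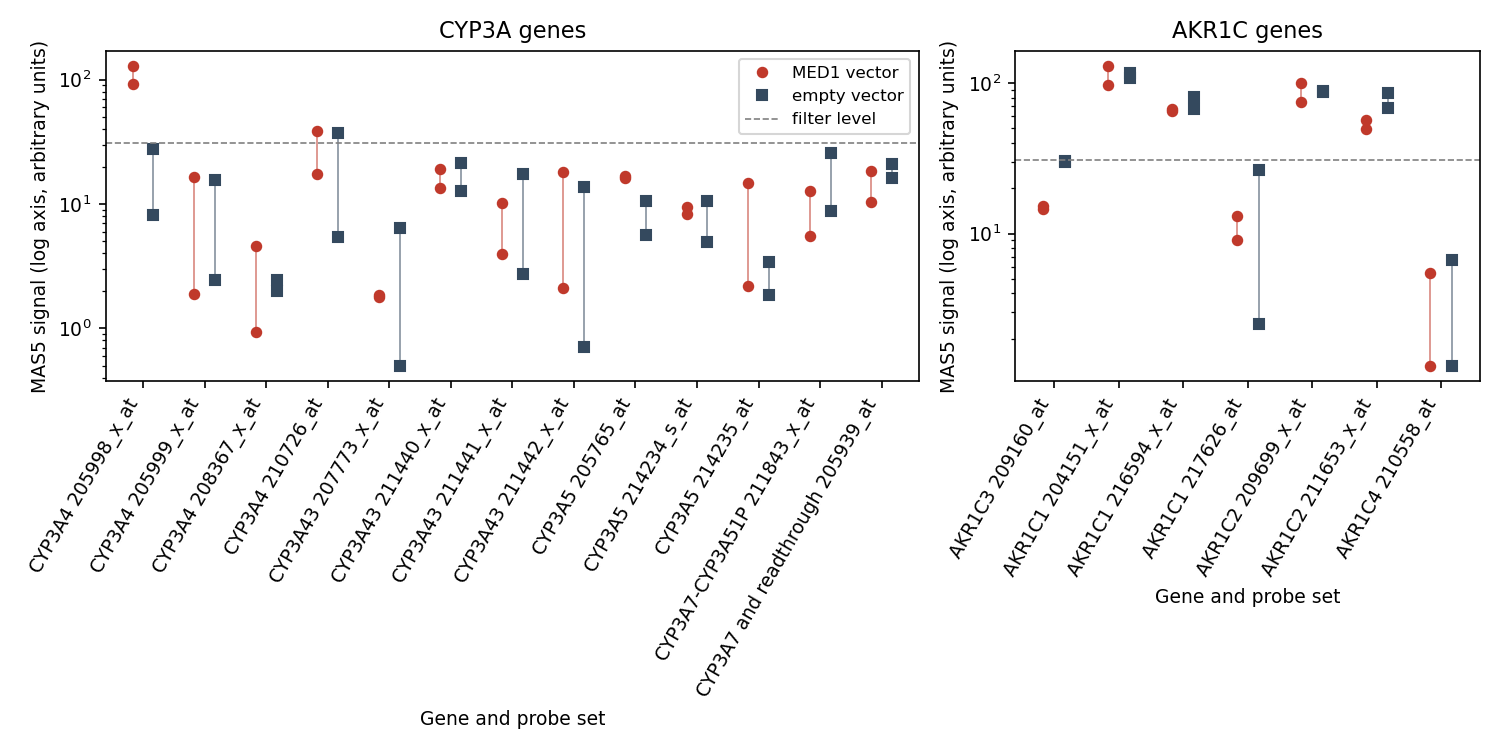
MAS5 signal (log axis, arbitrary units) on the 2 MED1 arrays (red circles) and the 2 empty vector arrays (blue squares) for every CYP3A probe set (left) and every AKR1C probe set (right), with the filter level of 31.0 dashed. On 205998_x_at and on 205765_at of CYP3A5 both MED1 arrays lie above both empty vector arrays. The groups overlap on the other CYP3A probe sets. Both MED1 arrays lie below on AKR1C3, on 216594_x_at of AKR1C1 and on 211653_x_at of AKR1C2. The groups overlap on the other AKR1C probe sets. Over all 22215 probe sets, both MED1 arrays lie above for 3479 and below for 4833.

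Other genes of steroid handling were taken from 11 lists of 106 genes, of which 78 had a probe set of their own and 44 were tested by that of highest mean signal. None of the 44 passed, beside 0.327% of all 7957 genes tested this way. At an unadjusted p of 0.05 the count was 1 higher and 0 lower, where the background was 4.1% higher and 5.69% lower. The median log2 fold change was -0.02, the same as over all genes, and 18 of the 44 were positive. The groups did not overlap for 4 genes above and 10 below, or 9.09% and 22.7%, against 17.7% and 23.5% of all genes. These counts leave out dimmer probe sets of a gene. For the transporter ABCC1, 202805_s_at gave -0.41 ± 0.17 (limma, unadjusted p = 0.0396, adjusted p = 0.504). Its counted probe set, 202804_at, gave 0.11 ± 0.11.

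Synthesis genes were mostly dim in these cells, with 5 of 12 tested. The mitochondrial electron carrier FDX1 had the lowest p of these, at 1437 and 1382 in MED1 cells against 1404 and 1145 in empty vector cells. A dimmer FDX1 probe set, 203646_at, read 1141 and 1015 against 1215 and 396, with empty vector replicate 2 alone low. Its log2 fold change was 0.62 ± 0.38 (limma, adjusted p = 0.645). Hydroxysteroid dehydrogenases other than the members had 8 tested genes and a median of -0.09. HSD17B11, which oxidises androstanediol, read 269 and 233 in MED1 cells against 315 and 269 in empty vector cells (log2 fold change -0.21 ± 0.14; limma, adjusted p = 0.688). Of the genes that supply or use activated glucuronic acid, UGP2 had the lowest p, at 1610 and 1542 against 1729 and 1647.

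In the sulfation list, STS, which frees steroids from their sulfates, read 171 and 138 in MED1 cells against 140 and 115 in empty vector cells (0.25 ± 0.18; limma, adjusted p = 0.716). CYP1A2, another drug-oxidising P450, read 156 and 164 against 148 and 116, from a probe set of the _x_at kind. The transporter ABCC4, which exports conjugates, read 3775 and 3879 in MED1 cells against 3766 and 3336 in empty vector cells. None of these 3 passed.

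Enzymes that share an organelle pathway with HSD17B4 or HSD17B10 were also compared. Of 5 tested peroxisomal genes, ACOX2, the oxidase of branched and bile acid chains, had the lowest p, at 398 and 421 in MED1 cells against 461 and 463 in empty vector cells (-0.17 ± 0.11; limma, adjusted p = 0.674). Of 6 mitochondrial genes, ACADSB, the dehydrogenase that precedes HSD17B10 in isoleucine breakdown by a few steps, read 321 and 270 against 224 and 178. Its groups did not overlap, and it was the gene counted at the unadjusted threshold, with 0.52 ± 0.16 (limma, adjusted p = 0.358). Of the 10 genes on the receptor list, 6 had a probe set of their own and 3 were tested. NR1I3, NR3C1 and AHR lay under the filter, so the list covers these regulators only in part. VDR and RXRA, regulators of CYP3A4 in liver and gut, gave -0.04 ± 0.13 and -0.01 ± 0.09 on their probe sets of highest mean signal. Dimmer tested probe sets of VDR gave -0.51 ± 0.28 (204253_s_at) and 0.07 ± 0.11 (204255_s_at). For RXRA, 202426_s_at gave -0.28 ± 0.19, with both MED1 arrays below both empty vector arrays. None of these passed.

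**Figure D5:**
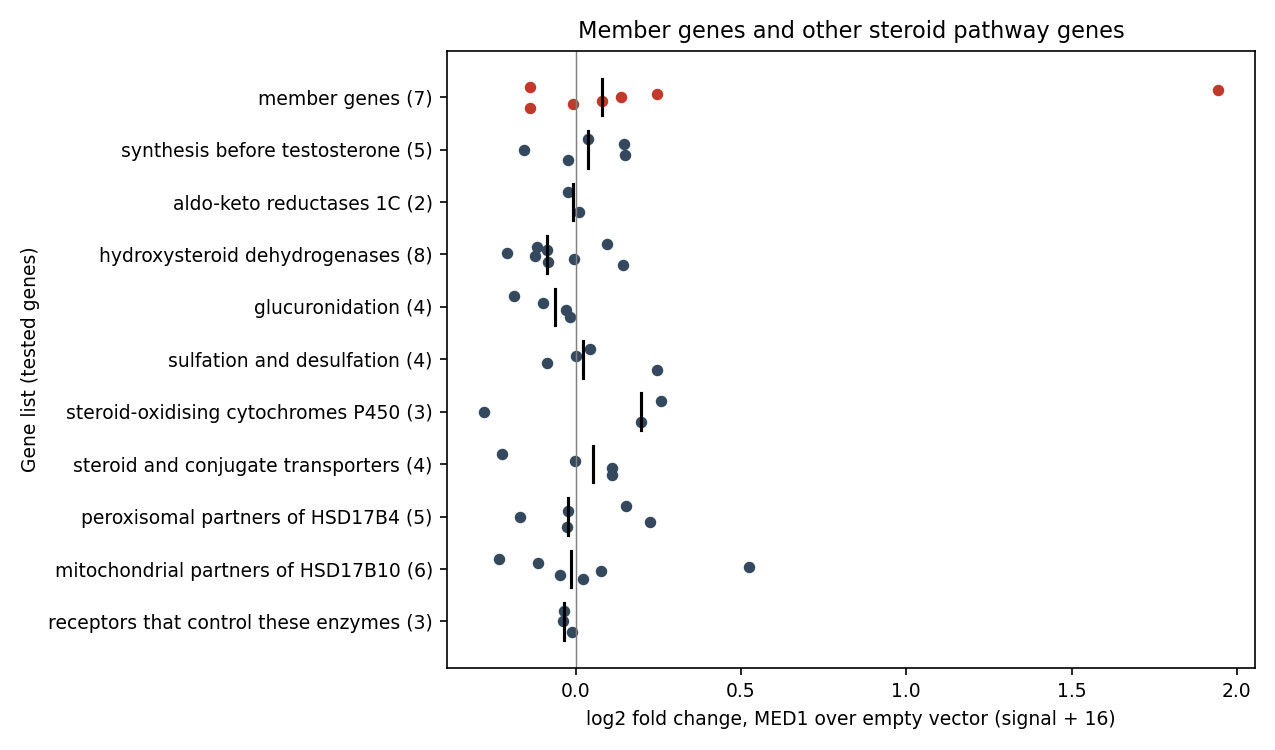
Log2 fold change of signal + 16, MED1 over empty vector, of the tested probe set with the highest mean signal for each gene: the 7 tested member genes (red, top line) and 10 lists of related genes (blue), with the number of tested genes in brackets and a black bar at each median. CYP3A4 at 1.94 lies far to the right, ACADSB at 0.52 follows, and the other genes lie between -0.28 and 0.26.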

How the data were processed

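Per the submitters' processing notes, the authors made the deposited intensity values with MAS5 (no version given); they are linear signals, 1 per probe set and array. Each array's mean after trimming 2% at each end was 500.2, so no scaling was added. What else was done upstream is not given in the sources used here. The arrays' number limits the precision. Groups came from titles. The empty vector samples' free-text description gives the MED1 vector; it was not followed, since titles and transfection labels contradict it.

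After 62 controls were left out, 22215 probe sets stayed, 19064 of them annotated to 1 gene. The filter removed the dimmest 40% by mean log2(signal + 16). The 2 groups were then set against each other in limma 3.58.1 (R 4.3.3, eBayes with trend, Benjamini-Hochberg), a procedure tested on simulated data. In those simulations 34.6% of 1.5-fold changes and 83% of 2-fold changes were recovered, so most changes under 1.5-fold could be missed. Separate cultures are not stated for the replicates, so p-values rest on a spread between samples that may be technical only. An exact permutation test of 2 against 2 cannot go below 0.333. Replicate numbers are shared, but same-numbered deviations correlated at 0.12 and 2 pairs are too few to settle pairing. Members and lists were chosen with earlier results of these data known. Named were every member probe set, MED1, passing genes of each list and otherwise its tested gene of lowest p. UGT2B4, SRD5A2, RXRA, ABCC1, NR1I3, NR3C1, AHR, and the AKR1C and CYP3A relatives were added after their values were seen. Alternatives changed the pseudocount, scaling, filter, variance trend, block and arrays. Figures used matplotlib 3.10.9.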

Additional observations from a re-analysis of the deposited data

How the results depend on the processing

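The count of member probe sets passing was 0 as reported, with a pseudocount of 1, with no filter, with the filter at the 60th percentile and without the variance trend; it was 1, always CYP3A4 205998_x_at, with a pseudocount of 64 (adjusted p = 0.0334), median centring (0.0415), quantile normalization (0.0301) and the replicate block (0.00151; limma), and 0 to 1 with an array left out, the 0 being without empty vector replicate 1 (0.0588); the lone array of a group was then assumed to vary like the other group. At the 60th percentile that probe set was not tested. In the reported setting it lay above the filter only through its signal in MED1 cells. All settings reuse the same 4 arrays, so these calls are not separate support. The count over all probe sets was 39, against 0 with no filter (limma, 1680 at an unadjusted p of 0.05), 5 without the trend, 239 with the replicate block and 25 to 216 with an array left out. Pathway genes passing stayed at 0 in every alternative run. Direction turned, without a call, for HSD17B4 with median centring (0.044) and with an array left out (-0.10 to 0.0858), and with an array left out for HSD17B10 (-0.34 to 0.0645), SRD5A1 204675_at (-0.0189 to 0.18) and 211056_s_at (-0.0552 to 0.45), and UGT2B17 (-0.32 to 0.0426). Among probe sets under the filter, not tested, it turned likewise for UGT2B15 217175_at (-0.15 to 0.32) and CYP3A4 205999_x_at (-0.43 to 0.42), 208367_x_at (-0.11 to 0.18) and 210726_at (-0.32 to 1.00). The causes were not tested. Without detection calls, low signals such as those of AKR1C3 have no known background.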
